A study of Bos taurus with 8 samples.

Results

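The 10 genes described here encode small leucine-rich proteoglycans (PRELP, DCN, LUM, BGN, FMOD, OGN and ASPN) and proteoglycans of the versican family with their link protein (VCAN, ACAN and HAPLN1). They were taken by name from the 32637 genes that had values in the count table, and all 10 were found. Their transcripts were measured by RNA sequencing in bovine embryonic stem cells (bESCs), before and after the cells were moved from a layer of mouse embryonic fibroblasts (MEF) to a coating of vitronectin.

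The bESC lines A, C, D and E were sequenced, all of XX genotype and derived from early or full blastocysts, so that 1 library of each line was available for each condition and 8 in all. In the MEF condition the cells grew on irradiated feeders in 5% O2 at passage 15 to 17, and in the feeder-free condition they grew on vitronectin in 5% O2 at passage 20 to 22. Passage, coating and the presence of feeders therefore changed together and cannot be told apart. NBFR medium, which holds FGF2 and the WNT inhibitor IWR-1, was common to all the cultures, and the methods add Activin A for feeder-free culture, whereas the sample titles carry the same medium name in both conditions. Total counts per library ranged from 44268717 to 54296425 on MEF and from 49671478 to 102351560 in feeder-free culture, the largest being that of line D. The labelled cell type was checked against pluripotency markers: none of the 8 listed had a mean under 1 CPM (counts scaled to the TMM-adjusted size of each library), and POU5F1, the highest of them in CPM, averaged 2048 ± 245 CPM on MEF against 1850 ± 84.6 CPM without feeders. Means are given ± SD over the 4 libraries of a condition throughout.

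Small leucine-rich proteoglycans are secreted proteins built of leucine-rich repeats, most of which carry chondroitin, dermatan or keratan sulfate chains. They coat collagen fibrils, set fibril spacing and bind growth factors such as TGF-β. The hyalectans versican and aggrecan instead carry many chondroitin sulfate chains and bind hyaluronan through their N-terminal domain, and link proteins such as HAPLN1 lock that bond, which gives the hydrated matrix of cartilage and of early embryonic tissue. These genes are best known from fibroblasts, chondrocytes and other mesenchymal cells, and VCAN also from the early embryo.

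With condition alone in edgeR's quasi-likelihood fit, 0 of the 10 genes were called, a call needing both an adjusted p under 0.05 and a difference of 1.5-fold or more. Over all 15744 genes tested, 0.724 percent were called higher and 1.00 percent lower in that fit. Of the 10, 7 passed the filter on low counts, which keeps a gene that is high in either condition, and FMOD, ASPN and ACAN did not. Of those tested, 5 (PRELP, LUM, BGN, VCAN and HAPLN1) were higher at an unadjusted p under 0.05, against 10.2 percent of all genes tested. Each line was cultured in both conditions, and with line as a paired term (replicate block) PRELP, BGN, VCAN and HAPLN1 were called higher and 0 lower, against 5.52 and 4.53 percent of all genes. The median log2 fold change of the 7 was 1.03 with condition alone, where that of all genes tested was 0.01. Log2 CPM was higher in feeder-free culture in all 4 lines for 4 of the 7, against 20.2 percent of all genes. Values of the members do not say whether more cells held a transcript or each cell held more of it, since fewer cells of a type and less RNA per cell cannot be told apart in bulk RNA.

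**Figure D1:**
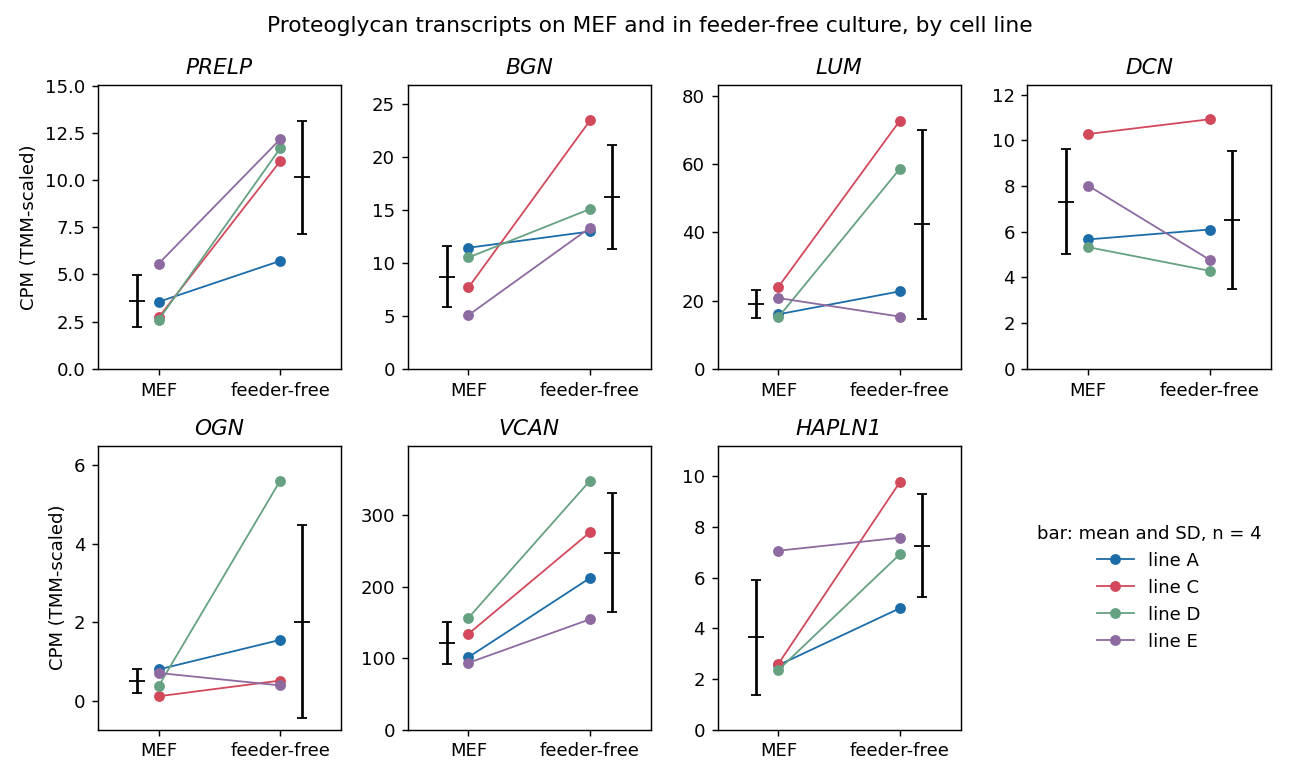
CPM (TMM-scaled) of the 7 proteoglycan genes that passed the filter on low counts, in each library on MEF and in feeder-free culture; lines join the libraries of 1 cell line and bars give the mean and SD over 4 libraries. PRELP, BGN, VCAN and HAPLN1 were higher in feeder-free culture in all 4 lines, LUM and OGN in 3, and DCN in 2.

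Among the collagen-binding members, PRELP, a proline- and arginine-rich protein that links collagen to heparan sulfate of basement membranes, had the largest fold change of the 4 genes called in the paired fit. On MEF it had 3.55 CPM in line A, 2.72 in C, 2.60 in D and 5.57 in E, and in feeder-free culture 5.72, 11.0, 11.7 and 12.2 CPM in the same order. All 4 feeder-free libraries lay above all 4 on MEF, although that of line A was close to the highest MEF library. The mean went from 3.61 ± 1.37 to 10.1 ± 2.99 CPM, a 2.81-fold difference. The log2 difference was 1.49 with an SE of 0.33, and the adjusted p of 0.0510 in edgeR's fit on condition alone lay just above the threshold. In the paired fit PRELP rose by a log2 value of 1.499 (SE 0.27, adjusted p = 0.00771 in edgeR), and it was called in that fit whichever line was left out, with adjusted p of 0.00527 to 0.0404. PRELP is also among the genes that the study selected as higher in feeder-free culture in part on these libraries, so its direction is not independent evidence.

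BGN (biglycan), a proteoglycan with dermatan or chondroitin sulfate chains that binds collagen and TGF-β, was the other member whose groups did not overlap. It had 11.4, 7.68, 10.5 and 5.07 CPM on MEF in lines A, C, D and E, and 13.0, 23.4, 15.1 and 13.3 CPM in feeder-free culture. Groups were separate in this direction for 6.21 percent of all genes tested. The gain was small in line A, with a log2 ratio of 0.18, and large in lines C and E, at 1.604 and 1.39. BGN rose in the paired fit (log2 0.92, SE 0.24, adjusted p = 0.0301 in edgeR), and its adjusted p with condition alone was 0.117. Its paired call was lost without line C (adjusted p = 0.125 in edgeR) or line E (adjusted p = 0.0905).

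LUM (lumican), a keratan sulfate proteoglycan that limits the width of collagen fibrils, differed between lines. On MEF its levels were close together, at 16.0 CPM in line A, 24.0 in C, 15.1 in D and 20.7 in E. In feeder-free culture it had 72.7 CPM in line C and 58.6 in line D, but 22.7 in line A and 15.3 in line E, which lay below the same line on MEF. The log2 fold change was 1.16 with condition alone (95% interval 0.15 to 2.17, adjusted p = 0.174 in edgeR) and 0.92 in the paired fit (adjusted p = 0.0887). Without line E the paired fit called it, at a log2 value of 1.38 (adjusted p = 0.0193 in edgeR). So did the paired fit of all 4 lines with no filter on low counts (log2 0.94, adjusted p = 0.00407). There the estimate hardly moved, while adjusted p fell for every tested member except DCN, to 3.92e-07 for VCAN. That fit called 1192 genes higher and 796 lower, against 869 and 713 with the filter, and the cause was not tested. With the filter, the paired log2 value of LUM was 0.68 without line C (adjusted p = 0.306 in edgeR) and 0.56 without line D (adjusted p = 0.310).

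DCN (decorin), the closest relative of BGN and a ligand of TGF-β and of receptor tyrosine kinases, stood apart as the only tested member with a negative estimate. It had 5.67, 10.3, 5.33 and 8.02 CPM on MEF in lines A, C, D and E, and 6.10, 10.9, 4.29 and 4.77 CPM in feeder-free culture, with line C highest in both. The ranges overlapped almost fully, and DCN was higher in 2 lines and lower in 2. Its log2 fold change was -0.17 (95% interval -0.94 to 0.60, adjusted p = 0.832 in edgeR), an interval that includes a 1.5-fold difference in either direction, and in the paired fit -0.21 (95% interval -0.67 to 0.24). LUM and DCN are neighbours on chromosome 5 of ARS-UCD2.0, where LUM spans 20971292 to 20981075 and DCN 21014373 to 21053400, with 33297 bases between them.

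OGN (osteoglycin, also called mimecan), a member of the third class of these proteoglycans, was low in most libraries. It had 33, 6, 18 and 31 counts on MEF in lines A, C, D and E, and 77, 27, 573 and 20 in feeder-free culture, or 0.109 to 0.792 CPM against 0.385 to 5.60 CPM. The feeder-free library of line D held most of these counts. The log2 fold change of 2.04 had a 95% interval from just under 0 to 4.08 (adjusted p = 0.232 in edgeR), and the paired fit did not call it either (adjusted p = 0.168). With pairing it was called without line E (adjusted p = 0.0462 in edgeR) and with no filter on low counts (adjusted p = 0.0465). Calls rose over all genes in the fit with no filter, as given for LUM. Without line D in feeder-free culture the log2 fold change on condition alone went from 2.04 to 0.72 (adjusted p = 0.693). OGN lies within CENPP on chromosome 8, a gene of the centromere with 12.3 ± 2.10 CPM on MEF and 16.4 ± 2.21 CPM in feeder-free culture. The strand used in counting is not given in the sources used here, so reads of the 2 genes may have been mixed.

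FMOD (fibromodulin) and ASPN (asporin), which bind collagen like their relatives LUM and DCN, were at the limit of detection. FMOD had 0 counts in all 4 MEF libraries and in feeder-free culture 2 counts each in lines C and D. A total of 0 over the MEF libraries allows a level of up to 0.0157 CPM by counting error (3 counts over the condition). This limit takes each count as independent, which was not tested, and would be higher if both reads of a pair were counted. ASPN had 0, 2, 2 and 10 counts on MEF and 2, 0, 5 and 7 in feeder-free culture in lines A, C, D and E, which came to 14 in each condition. No difference in FMOD or ASPN was detectable at this depth. FMOD overlaps LOC107133214, and ASPN lies within CENPP.

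VCAN (versican), the large hyaluronan-binding proteoglycan, had the smallest spread between lines in its response. It had 101 CPM in line A, 134 in C, 156 in D and 93.5 in E on MEF, and 212, 276, 348 and 154 CPM in feeder-free culture. Line D was highest and line E lowest in both conditions, and the feeder-free library of line E fell just under the MEF library of line D, so the groups overlapped although each line was higher. Log2 ratios were 1.06, 1.04, 1.16 and 0.72 in lines A, C, D and E. With condition alone the 2.04-fold difference (log2 1.03, SE 0.26) had an adjusted p of 0.0671 in edgeR, and in the paired fit VCAN rose by a log2 value of 1.00 (SE 0.11, adjusted p = 0.00130), a call that held whichever line was left out (adjusted p of 0.00271 to 0.0116). VCAN held 74.3 percent of the summed CPM of the 10 genes, a share of counts that is not corrected for transcript length.

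HAPLN1, the link protein that joins versican or aggrecan to hyaluronan, lies beside VCAN on chromosome 7, where VCAN spans 83356741 to 83476755 and HAPLN1 83535836 to 83616647. On MEF it had 2.55, 2.60 and 2.35 CPM in lines A, C and D and 7.07 CPM in line E, and in feeder-free culture 4.80, 9.77, 6.93 and 7.58 CPM in lines A, C, D and E. The MEF library of line E was thus as high as the feeder-free libraries, and its log2 ratio was 0.10, against 0.90 to 1.90 in the other lines. HAPLN1 rose in the paired fit (log2 1.12, SE 0.30, adjusted p = 0.0325 in edgeR) and was not called with condition alone (log2 1.00, adjusted p = 0.189). Without line A, C or D the paired call was lost, with adjusted p of 0.0588, 0.136 and 0.126, so it rests on the full set of lines or on leaving out line E.

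ACAN (aggrecan), the hyalectan that gives cartilage its resistance to compression, did not pass the filter. It had 0, 2, 2 and 0 counts on MEF and 2, 4, 31 and 2 counts in feeder-free culture in lines A, C, D and E. The feeder-free library of line D therefore held 31 of 39 feeder-free counts, against 4 counts on MEF in all. With no filter ACAN was not called in either fit (adjusted p = 0.369 with condition alone and 0.428 in the paired fit, both from edgeR).

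**Figure D2:**
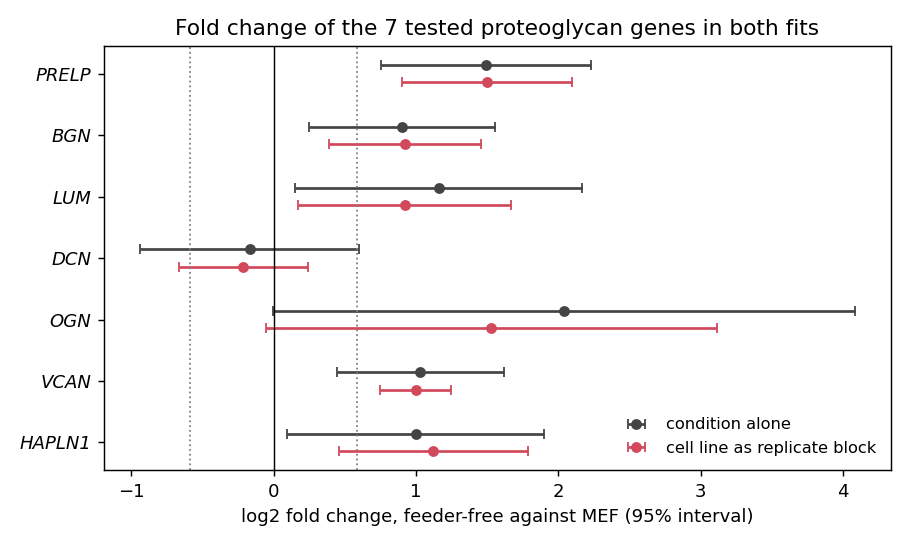
Log2 fold change, feeder-free against MEF, of the 7 tested genes with its 95% interval, in the fit on condition alone and in the fit with cell line as a replicate block; dotted lines mark a 1.5-fold difference. Pairing left the estimates of PRELP (1.49 and 1.499) and VCAN (1.03 and 1.00) in place and narrowed their intervals, while that of OGN stayed across 0.

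The members lie in groups along the bovine genome that the choice of genes did not use. EPYC, KERA, LUM and DCN follow each other on chromosome 5, FMOD, PRELP and OPTC on chromosome 16, OGN, OMD, ASPN and ECM2 on chromosome 8, and ACAN is followed by HAPLN3 on chromosome 21. In ARS-UCD2.0 coordinates, PRELP spans 1238715 to 1252743 and FMOD 1122157 to 1132183 on chromosome 16, BGN 36728478 to 36742281 on chromosome X, OGN 84019267 to 84034853 and ASPN 84067280 to 84092649 on chromosome 8, and ACAN 20377694 to 20447099 on chromosome 21. Counts are per gene, so no position within a gene was measured. Genes beside the members were examined after the data had been seen. Of 25 protein-coding genes within 2 places of a member, 16 were tested, 0 were called with condition alone and 1 in the paired fit. That gene was ATP2B4, a plasma membrane calcium pump near PRELP, which rose (log2 0.92, adjusted p = 0.0165 in edgeR's paired fit). Pairing called 5.52 percent of all genes tested higher and 4.53 percent lower. XRCC4 and EDIL3, which flank VCAN and HAPLN1, had log2 fold changes of 0.10 and 0.38 and were not called. KERA had 0 counts in every library, and EPYC, OMD and OPTC had means under 0.2 CPM in both conditions.

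Of the 11 other small leucine-rich proteoglycans listed, 6 were tested and 0 called in either fit. TSKU (tsukushi), a secreted modulator of BMP and WNT signals, held 95.4 percent of their summed CPM and averaged 109 ± 16.7 CPM on MEF against 120 ± 30.01 CPM without feeders (log2 0.14, adjusted p = 0.732 in edgeR). ECM2 was higher in 4 lines (log2 0.97, adjusted p = 0.322 in edgeR, and 0.0663 in the paired fit). PODN was higher in 3 (log2 0.55, adjusted p = 0.785 in edgeR), with 0 counts on MEF and 111 in feeder-free culture in line E. Of the 6 tested, 4 had a log2 value above 0. NYX and CHAD, added after their values were seen, had -0.73 and -0.17, and NYX was lower in all 4 lines. Like OGN, ECM2 overlaps CENPP, so reads of ECM2 and CENPP may have been mixed. Of the 5 other hyalectans and link proteins, 4 were tested, with 0 called on condition alone and NCAN and HAPLN4 called lower in the paired fit. In that fit 4.53 percent of all genes tested were called lower. NCAN (neurocan), the hyalectan of nervous tissue, had 35.5, 34.1, 17.1 and 11.9 CPM on MEF in lines A, C, D and E and 11.4, 13.1, 2.78 and 4.45 CPM in feeder-free culture, so that it fell in each line (paired log2 -1.76, adjusted p = 0.00168 in edgeR). HAPLN4, a link protein of the brain, fell with it (paired log2 -1.44, adjusted p = 0.0119), but the 2 genes overlap in the annotation and their reads may have been mixed. HAPLN4 was not called without line D, while NCAN was called whichever line was left out. HAPLN3 was higher in 4 lines without passing (paired log2 0.89, adjusted p = 0.106). VCAN and NCAN thus had paired estimates of opposite sign, each past the thresholds.

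Hyaluronan is the chain to which VCAN and HAPLN1 bind, and HAS2, the main hyaluronan synthase of embryonic tissue, was the sole gene of the related lists called with condition alone. It had 15.8, 13.1, 27.2 and 9.35 CPM on MEF in lines A, C, D and E, and 58.1, 39.2, 87.3 and 38.9 CPM in feeder-free culture. All feeder-free libraries lay above all those on MEF, and HAS2 rose by a log2 value of 1.77 (SE 0.37, adjusted p = 0.0486 in edgeR), or 1.80 in the paired fit (adjusted p = 0.000206). With condition alone this call was lost without scaling and with any 1 of the 8 libraries left out, whereas in the paired fit HAS2 was called whichever line was left out. Of 18 listed genes for hyaluronan, 14 were tested, and the paired fit called HAS2 and HYAL3, a hyaluronidase that overlaps NAA80, higher and 0 lower. The shares over all genes tested were 5.52 and 4.53 percent. The call of HYAL3 was lost whichever line was left out. The highest of the list in CPM, not corrected for transcript length, were CEMIP2, HMMR and HYAL2, with paired log2 values of 0.38, 0.09 and 0.45, none called. The other synthases HAS1 and HAS3 and the receptor CD44, added to the named genes after their values were seen, had paired log2 values of -0.11, 0.24 and -0.04 and were not called.

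Enzymes that build and sulfate chondroitin, dermatan and keratan sulfate chains were mixed in direction. All 29 listed were tested, 0 were called with condition alone, and the paired fit called 3 higher and 3 lower, with a list median of 0.025. Of all genes tested, the paired fit called 5.52 percent higher and 4.53 percent lower. DSE, the epimerase that turns chondroitin into dermatan sulfate, averaged 46.6 ± 19.0 CPM on MEF against 102.1 ± 30.8 CPM without feeders and rose in the paired fit (log2 1.17, adjusted p = 0.000763 in edgeR). CHST3, which sulfates chondroitin at the 6-O position, rose as well (log2 1.02, adjusted p = 0.00453), as did the chondroitin synthase CHSY3, from 0.320 ± 0.253 to 1.83 ± 1.84 CPM (adjusted p = 0.0382), although it was lower in line A (log2 ratio -0.19). CHST11, which sulfates chondroitin at the 4-O position, fell (log2 -0.77, adjusted p = 0.0130), as did UST, a sulfotransferase for uronic acid (log2 -1.003, adjusted p = 0.00139), and XYLT1, which adds the first sugar of the chain to the core protein (log2 -0.65, adjusted p = 0.0113). The calls of DSE, CHST3 and UST held whichever line was left out, whereas that of CHST11 was lost without line D, that of XYLT1 without C or E, and that of CHSY3 without C, D or E. CHPF, the highest of the list in CPM, had a paired log2 value of 0.05, and CHSY1 had -0.43 at an adjusted p of 0.0339, short of the fold change threshold.

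Proteases that cleave proteoglycans, and their inhibitors, were called in both directions in the paired fit. Of 18 listed 16 were tested, 0 were called with condition alone, and 4 were higher and 3 lower with pairing. Over all genes tested, pairing gave 5.52 percent higher and 4.53 percent lower. The versican-cleaving ADAMTS1 rose (paired log2 0.74, adjusted p = 0.0156 in edgeR), and so did the inhibitors TIMP2 (1.07, adjusted p = 0.0146) and TIMP3 (1.27, adjusted p = 0.0266), which holds to matrix and blocks ADAMTS enzymes. MMP3 (stromelysin) had 0, 0.145, 0.826 and 0.0453 CPM on MEF in lines A, C, D and E and 0.642, 12.1, 47.0 and 3.00 CPM in feeder-free culture, higher in each line and highest in line D (adjusted p = 2.04e-05 in the paired fit). ADAMTS9, which also cleaves versican, the serine protease HTRA1 and TLL1, a relative of the biglycan-processing protease BMP1, fell, with paired log2 values of -1.61, -1.18 and -1.06. The calls of MMP3 and HTRA1 held whichever line was left out. ADAMTS1 was not called without line D, TLL1 without C, ADAMTS9 and TIMP2 without C or without D, and TIMP3 without C, D or E. MMP2, MMP14 and TIMP1, the highest of the list in CPM, were not called, with paired log2 values of -0.27, -0.15 and 0.50, although the adjusted p of TIMP1 was 0.0342.

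Of 31 matrix partners and ligands of these proteoglycans, 27 were tested, 0 were called with condition alone, and the paired fit called 5 higher and 2 lower. THBS1 (thrombospondin), a matrix protein that activates TGF-β, averaged 36.7 ± 35.4 CPM on MEF against 325 ± 287 CPM without feeders and rose in each line (paired log2 3.02, adjusted p = 0.000298 in edgeR). COL3A1, COL12A1 and COL14A1, fibrillar and fibril-associated collagens, rose by 2.53, 1.30 and 0.78, and MET, a receptor that decorin can bind, by 1.61. COL2A1, the cartilage collagen, fell from 1538 ± 69.2 to 1017 ± 295 CPM (paired log2 -0.64, adjusted p = 0.0274). COL1A2 fell from 2.71 ± 2.21 to 0.157 ± 0.187 CPM (adjusted p = 0.00166 in edgeR's paired fit). COL1A1, the other chain of collagen I, had 353 ± 41.0 and 507 ± 404 CPM and was not called (paired log2 0.11). Neither was FN1 (paired log2 0.17, adjusted p = 0.447 in edgeR), which was higher in 2 lines and lower in 2. The study, by contrast, names FN1 among the genes higher in feeder-free culture in both high and low oxygen. THBS1, COL3A1, MET and COL1A2 were called whichever line was left out, COL12A1 and COL14A1 were not called without C or without D, and COL2A1 was called only without D. Over all 96 tested genes of the related lists, the paired fit called 14 higher and 10 lower, with a median of 0.06. Over all genes tested it called 5.52 percent higher and 4.53 percent lower, with a median of 0.01.

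**Figure D3:**
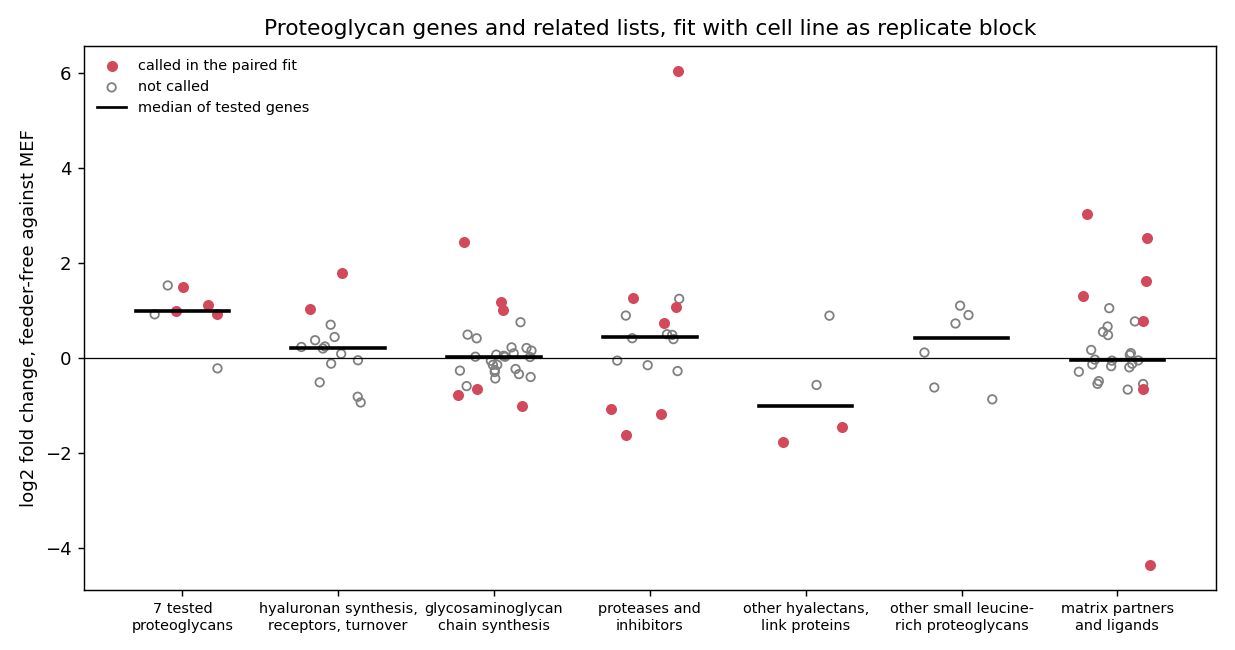
Log2 fold change, feeder-free against MEF, of each tested gene of the proteoglycan set and of 6 related lists, from the fit with cell line as a replicate block; filled points passed both thresholds and bars give list medians. Among the proteoglycans the 4 called genes were all higher, while the lists for chain synthesis, proteases and matrix partners held called genes on both sides of 0.

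Feeder cells are fibroblasts, and mesenchymal cells express most of the 10 genes, so fibroblast markers were examined beside them. Of 16 listed markers, 14 were tested, and 5 of the 16 were also on the list of matrix partners. With condition alone 0 were called, and the paired fit called COL3A1, POSTN and CCN2 higher and COL1A2 and PRRX1 lower. That fit called 5.52 percent of all genes tested higher and 4.53 percent lower. PRRX1, a mesenchymal transcription factor, had 1.15, 2.56, 2.62 and 1.02 CPM on MEF in lines A, C, D and E and 0, 0.0565, 0.606 and 0.0385 CPM in feeder-free culture. None of the 16 was at 0 in every library, and 5 had a mean under 1 CPM. VIM held 59.9 percent of their summed CPM. With a line left out, POSTN was called without A, not called without C or E and not tested without D, and CCN2 was not called without C. VIM and FBN1, among the highest of the list in CPM, had paired log2 values of 0.11 and 0.67 and were not called. Without VIM the markers summed to 365, 474, 463 and 436 CPM on MEF and to 193, 759, 1195 and 350 CPM in feeder-free culture in lines A, C, D and E. Feeder-free lines C and D were thus highest and lines A and E lowest, and most of each sum was COL1A1. Without COL1A1 as well, the sums were 72.8, 91.1, 97.2 and 66.4 CPM on MEF and 78.3, 162, 162 and 66.6 CPM in feeder-free culture, so that lines C and D remained highest while A and E were close to their MEF libraries. The 10 proteoglycan genes without VCAN summed to 40.0, 47.4, 36.4 and 47.4 CPM on MEF and to 53.9, 128, 103 and 53.7 CPM in feeder-free culture, again highest in lines C and D. The part of fibroblast-like cells in these sums was not tested. The study's methods also describe a subtraction, from MEF cultures, of bovine-aligned reads found in a sample of feeders only, and its part in the MEF values was not tested.

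**Figure D4:**
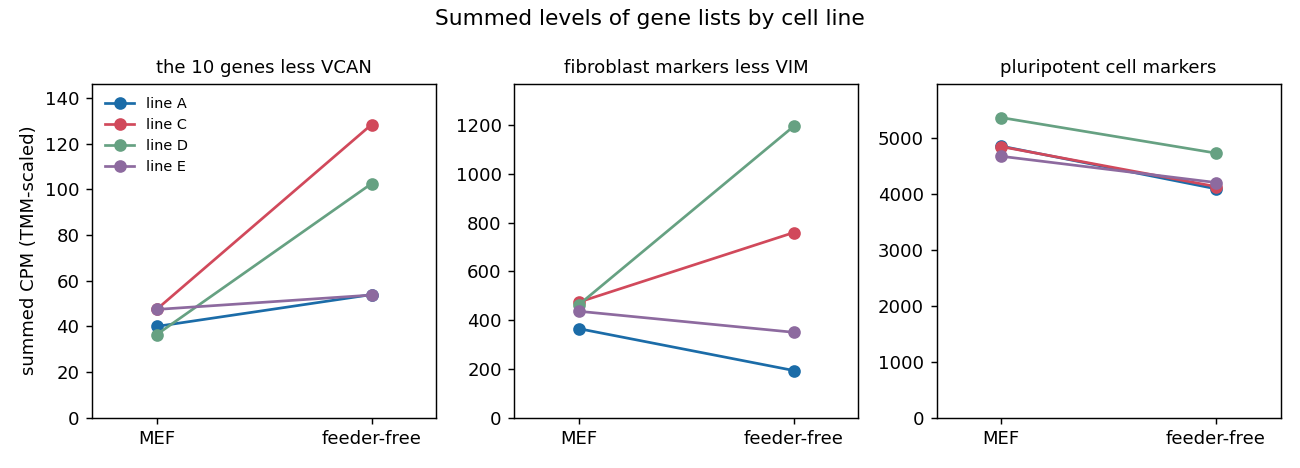
Summed CPM (TMM-scaled) by cell line on MEF and in feeder-free culture, for the 10 proteoglycan genes without VCAN, the fibroblast markers without VIM and the 8 pluripotency markers. In feeder-free culture lines C and D were highest for the first and the second sum, while the pluripotency markers lay between 4090 and 4728 CPM.

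Of the 8 pluripotency markers, 5 were lower in feeder-free culture in every line, against 20.7 percent of all genes tested. Their sum averaged 4934 ± 299 CPM on MEF against 4288 ± 297 CPM without feeders. With condition alone 0 were called, SALL4 falling short of the fold threshold (log2 -0.58, adjusted p = 0.0426 in edgeR), and the paired fit called OTX2 lower (log2 -0.66) and CRIPTO, the gene listed as TDGF1, higher (log2 2.42). SOX2 and DNMT3B, the highest in CPM after POU5F1, had paired log2 values of -0.35 and 0.16. Among all genes tested, 5.52 percent were called higher and 4.53 percent lower in the paired fit.

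Among the 7 tested members, PRELP and HAPLN1 were most alike, with a Pearson correlation of log2 CPM of 0.924 over the 8 libraries, then LUM and VCAN at 0.787 and BGN and VCAN at 0.778, whereas DCN and OGN had -0.577. All pairs without DCN were positive, from 0.306 up, while DCN had values from -0.577 to 0.309 with the other members. These 8 points share 4 lines and 2 conditions and are given as a description. Outside the members, the tested genes most like PRELP were SLC44A3 (0.992), APOA1 (0.985) and SYNPO2L (0.974), and those most like VCAN were CDH4 (0.984), LHX2 (0.979) and LOC112448762 (0.978). LUM was most like FBN1 (0.964), the fibrillin of microfibrils, RASSF9 (0.947) and THSD7A (0.940), and BGN most like TGFB2 (0.981), SH3TC1 (0.978) and LOC132345702 (0.965), of which TGFB2 had a mean of only 0.393 CPM. HAPLN1 was most like ACSS2 (0.976), KIF9 (0.934) and TLL2 (0.934), OGN most like MDGA1 (0.948), IL1RAP (0.929) and SARAF (0.928), and DCN most like GAREM2 (0.951), CRISPLD1 (0.951) and RGS9 (0.940).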

How the data were processed

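Whole-number gene counts from 8 paired-end libraries were deposited. Trimmomatic had been used for trimming and STAR for alignment to the ARS-UCD2.0 genome, and reads were filtered with Picard and samtools for optical duplicates and low mapping quality, and counted with featureCounts (Subread 1.6.2, per the labels). The methods give an RNeasy kit for RNA, the labels Trizol. Of 32640 genes, 3 had empty cells and were left out; 0 columns were unused.

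Counts were analysed with edgeR 4.0.16 in R 4.3.3 (filterByExpr, TMM, glmQLFit and glmQLFTest) with condition as the only term. Benjamini-Hochberg adjustment ran over 15744 genes, and calls needed an adjusted p under 0.05 with a 1.5-fold difference. SEs and 95% intervals were derived from the F statistic, and log2 CPM used a prior count of 2. All libraries carry the same batch label, and no 2 libraries of a condition were alike (smallest chi-square per degree of freedom 34.3). The line letter pairs the libraries, since the same line was grown in both conditions; deviations from the condition means correlated at 0.421 to 0.664 within lines and at -0.523 to 0.249 between lines. The paired fit (replicate block) is given where it changed a call. The fits were run on simulated counts in which a line effect was the same in both conditions. Responses that differ between lines were not simulated, so that run does not test the paired calls under them.

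The members and lists were chosen with earlier results of these data known. Named were the 10 members, the called genes and the 3 of highest mean CPM in each list, and the 3 genes most correlated with each tested member. The related lists cover other small leucine-rich proteoglycans, other hyalectans and link proteins, hyaluronan, chain synthesis, proteases, and matrix partners; marker lists cover pluripotent cells, fibroblasts, mesoderm, cartilage, hypoblast and trophoblast. Gene positions are from RefSeq. Alternatives tried were no scaling, RLE size factors, 2 other filters, the likelihood ratio test, DESeq2 1.42.0, the replicate block, no fold change threshold, a prior count of 0.5 and each library left out. The replicate block without each line, and without a filter, was added after the data were examined, as was the sum of fibroblast markers without COL1A1. The result of 1 gene that this rule names is not reported here.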

Additional observations from a re-analysis of the deposited data

Results flagged for a closer look

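Among 16 groups of 4 libraries examined (the log2 CPM of the 7 tested members and the total counts, in each condition), 3 held a library far from the other 3 of its group, a number that chance puts at about 0.8.

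Line D without feeders was sequenced to 102351560 counts and the remaining feeder-free libraries to between 49671478 and 51320214. PRELP was lowest in line A without feeders, at 2.525 log2 CPM against 3.46 to 3.61. The MEF library of line E was highest for HAPLN1, at 2.83 log2 CPM against 1.26 to 1.40. No cause was tested for these libraries.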

How the results depend on the processing

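Over the 21 alternatives the log2 fold changes of PRELP, LUM, BGN, VCAN and HAPLN1 stayed above 0, as did that of OGN over the 20 in which it was tested; PRELP ranged from 1.28 to 1.78, OGN from 0.70 to 2.39 and VCAN from 0.82 to 1.21. DCN went from -0.54 without line C in feeder-free culture to 0.042 without line C on MEF, the only change of sign. With condition alone 0 members, 1 gene of the related lists, 114 genes higher and 158 lower were called. No filter gave 73 and 97 over all genes, and no scaling lowered the count of lower genes to 91 and that of the related lists to 0; in scaling the median of all genes moved by at most 0.04. At least 10 counts in every library gave 199 higher, 1 member (PRELP) and 3 related genes. The likelihood ratio test gave 448, 389, 2 members (VCAN and PRELP) and 15 related genes, and DESeq2 695, 516, 3 (those and BGN) and 22. With the replicate block, 869, 713, 4 members and 24 related genes were called, and 270 of the 272 genes called without it were among them; the block changed the call of no member other than PRELP, BGN, VCAN and HAPLN1. Leaving out a line in that fit gave 918, 733, 3 and 25 without A; 561, 496, 2 and 15 without C; 376, 366, 3 and 15 without D; and 662, 497, 5 and 22 without E. The replicate block with no filter gave 1192, 796, 6 and 28. Leaving out 1 library in the fit on condition alone gave 0 to 259 higher, 0 to 231 lower, 0 to 1 member and 0 to 6 related genes, the highest of each when line A in feeder-free culture was left out. Fewer samples, or more or fewer genes tested, are part of the leave-outs and filters; elsewhere the cause was not tested. Depth limits FMOD, ASPN and ACAN. With condition alone p-values measure the spread between 4 lines, and in the paired fit the spread of the change between these lines. Shares of summed CPM and the order of genes by CPM are not corrected for transcript length.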

Other observations

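COL2A1, the collagen that aggrecan and HAPLN1 accompany in cartilage, held 92.2 percent of the summed CPM of 12 cartilage markers. Of the 11 tested, 0 were called with condition alone, and COL2A1 and SOX9, the master regulator of cartilage, were called lower in the paired fit (log2 -0.64 and -1.15). With a line left out, COL2A1 was called only without D and SOX9 only without C. COL11A1 had a paired log2 value of -0.37 and was not called.

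Keratins of simple epithelium rose among the trophoblast markers in the paired fit: KRT7 by 1.46, KRT8 by 0.74 and KRT18 by 0.98 on the log2 scale, while GATA2 fell by 1.45, and 7 of the 10 markers were tested. KRT7 was not called without line C, KRT8 and KRT18 without C or without D, and GATA2 without A, C or D. Over all genes tested the paired fit called 5.52 percent higher and 4.53 percent lower. Among 12 mesoderm markers, 5 were tested and EOMES was called higher with pairing (log2 1.61; not without line A or C), while TBX6 and FOXC1 had -0.06 and -0.26. Of 8 hypoblast markers, 2 were tested, APOA1 was called higher in both fits (log2 1.53 with condition alone), and FOXA2 had a paired log2 value of -0.78. With condition alone the call of APOA1 was lost without any MEF library, or without line C or E in feeder-free culture. In the paired fit APOA1 was called whichever line was left out. Like PRELP, it is among the genes that the study selected as higher in feeder-free culture, so its direction is not independent evidence.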
